A study of Mus musculus with 26 samples.

Results

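The genes described are 10 members of the Notch pathway, chosen by name as 3 receptors (Notch1, Notch2 and Notch3), 4 ligands (Dll1, Dll3, Jag1 and Jag2) and 3 target genes (Hes1, Hes5 and Hey1) among 55291 genes listed in each of 2 RNA sequencing count tables. All 10 were listed in both tables, and 9 of 10 passed the filter on low counts and were tested in each, Hes5 being the exception. The 2 tables hold 26 libraries of mouse embryonic stem cells (ESCs, line E14) and of neural progenitor cells (NPCs) made from them by 2 days of culture on laminin in N2B27 medium. The study asked how RNA interactions of CTCF, a DNA-binding protein that anchors chromatin loops, act in the 2 cell states, first by exchanging CTCF for a form without its first zinc finger (ΔZF1) and then by truncating 2 RNAs.

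The first table holds 4 groups of 2 libraries each. Their names here are ESC-WT and ESC-ΔZF1 for the stem cells and NPC-WT with NPC-ΔZF1 for the progenitors. All 4 carried mAID-eGFP on both endogenous CTCF alleles, OsTIR1(F74G) at Rosa26, an mCherry reporter at Hb9/Mnx1, and a doxycycline-inducible Flag-Halo-CTCF at Tigre, either WT or ΔZF1. All 4 received 1 µM 5-Ph-IAA, which degrades the tagged endogenous CTCF, together with 1 µg/ml doxycycline for 24 hours, so the WT rescue is the control and no untreated group enters this table. Each rescue line is 1 clone. The second table holds 6 groups of 3 libraries each: E14 WT, Podxl pA and Grb10 pA, each as ESCs and as NPCs, with no treatment labelled. The pA lines are homozygous knock-ins of T2A-eGFP with an SV40 polyadenylation signal behind the first coding exon of Podxl or Grb10. Replicates are numbered in the labels, and the study calls its RNA sequencing replicates biological.

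Notch receptors are membrane proteins activated by Delta and Jagged ligands on a neighbouring cell. Cleavage by ADAM proteases and γ-secretase frees the intracellular domain, which enters the nucleus, joins the DNA-binding protein RBPJ and switches on repressors of the HES and HEY families. In neural progenitors, Hes1 and Hes5 hold back neuronal differentiation and Dll1 on nascent neurons signals to their neighbours.

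The label checks and the depth were as follows. Totals ran from 6425179 to 28730435 counts per library in the rescue table and from 1907505 to 8845087 in the truncation table. Podxl in Podxl pA against E14 WT had a log2 fold change of -2.73 in ESCs (SE 0.24, edgeR adjusted p = 2.22e-07) and -3.45 in NPCs (SE 0.15, adjusted p = 9.72e-15), and Grb10 in Grb10 pA had -1.89 (SE 0.093, adjusted p = 2.14e-13) and -3.86 (SE 0.086, adjusted p = 4.92e-22). Ctcf counts cannot separate the tagged endogenous gene from the rescue transgene. Of the 8 neural progenitor markers, 6 or 7 were tested per table, and 5 or 6 of them were called higher in NPCs in each of the 5 lines. In Grb10 pA 1 was called lower. Sox1 averaged 19.4 to 79.3 CPM (each count relative to its library's total, with totals scaled by TMM) in the 5 NPC groups and 4.72 to 11.5 CPM in the 5 ESC groups. In E14 WT, Otx2 went from 1.18 to 29.4 CPM, Olig3 from 0.187 to 11.1 CPM and Pax6 from 2.58 to 7.90 CPM. Nes went from 23.9 to 22.0 CPM in E14 WT and from 12.7 to 8.61 CPM in Grb10 pA. In Podxl pA, WT rescue and ΔZF1 cells it averaged 19.6, 32.8 and 21.9 CPM in ESCs and 24.6, 98.3 and 54.5 CPM in NPCs. Pax6 was called higher in every line but WT rescue cells (2.25 to 1.79 CPM), and Fabp7, a radial glia gene, had at most 1 read in any library. The 2 NPC-WT libraries of the rescue table stood apart from each other, with a chi-square per gene of 74.1 between them against 3.12 to 7.21 for the other 3 replicate pairs there. In the truncation table, ESC E14 WT replicate 1 (chi-square 15.4 and 31.6 to its fellows) and ESC Grb10 pA replicate 2 (20.1 and 25.5) stood apart from pairs otherwise at 1.76 to 5.98. Of the member calls, leaving out the first ended that of Dll3 between E14 WT ESCs and NPCs, and leaving out the second ended that of Dll1 in Grb10 pA ESCs, with no other call lost or gained. A call means edgeR's quasi-likelihood test with a Benjamini-Hochberg adjusted p of at most 0.05 over all genes of the table and an absolute log2 fold change of at least 0.5. The 2 tables were normalized and tested separately, so levels set side by side across them are descriptions.

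On GRCm38 (mm10), in the GENCODE M21 annotation, the receptor genes lie at chr2:26457903-26516663 on the minus strand (Notch1), chr3:98013527-98150361 on the plus strand (Notch2) and chr17:32120820-32166852 on the minus strand (Notch3). The ligand genes lie at chr17:15367354-15376872 (Dll1), chr7:28293553-28302238 (Dll3), chr2:137081456-137116644 (Jag1) and chr12:112907819-112929776 (Jag2), all on the minus strand. The targets lie at chr16:30064384-30067796 on the plus strand (Hes1), chr4:154960923-154962371 on the plus strand (Hes5) and chr3:8663359-8667256 on the minus strand (Hey1).

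Promoters are shown because they belong to the target gene with at most 2 reads in any library (Hes5) and to the receptor and the ligand that rose most among the 9 tested genes in the NPCs of each line (Notch3 and Dll1). The 250 bases before the RefSeq start were read on the gene's strand from the GRCm38.p6 table (mm10), which held 8 of the 10 members. It held no entry for Hes1 or Hey1, so their promoters were not read. The search was for the RBPJ core TGGGAA on both strands (TTCCCA on the other), and for the longer GTGGGAA, every match of which also holds the core. Capitals mark the core. The Hes5 window lies at chr4:154960673-154960922 on the plus strand, the Notch3 window at chr17:32166891-32167140 on the minus strand, and the Dll1 window at chr17:15376933-15377182 on the minus strand.
Hes5: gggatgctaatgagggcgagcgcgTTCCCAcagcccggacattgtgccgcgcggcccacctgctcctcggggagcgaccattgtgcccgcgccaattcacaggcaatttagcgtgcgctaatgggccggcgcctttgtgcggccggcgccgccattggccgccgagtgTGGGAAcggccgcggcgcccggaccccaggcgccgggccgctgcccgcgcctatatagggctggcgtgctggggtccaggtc
Notch3: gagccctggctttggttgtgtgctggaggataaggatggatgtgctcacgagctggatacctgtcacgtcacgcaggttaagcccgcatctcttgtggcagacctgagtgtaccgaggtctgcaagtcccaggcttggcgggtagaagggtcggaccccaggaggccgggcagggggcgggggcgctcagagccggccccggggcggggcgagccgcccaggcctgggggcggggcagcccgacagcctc
Dll1: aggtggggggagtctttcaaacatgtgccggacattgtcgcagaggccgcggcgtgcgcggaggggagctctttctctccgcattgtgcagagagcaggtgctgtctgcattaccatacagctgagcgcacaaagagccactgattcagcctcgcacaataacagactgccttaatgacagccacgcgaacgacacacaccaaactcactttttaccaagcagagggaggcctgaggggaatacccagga
Hes5 held 2 core matches, the first beginning 226 bases before the start and read on the minus strand, the second beginning 82 bases before it and read on the plus strand, and both matched the longer form. Of 32851 RefSeq promoter windows of the same length, 21.59% held at least 1 core and 5.415% at least 1 longer form, while 2.77% and 0.1613% held 2 or more. No match to these letters lay in the windows of Notch1, Notch2, Notch3, Dll1 (both of its starts), Dll3, Jag1 or Jag2.

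Among the receptors, the pool per length of exon changed composition between ESCs and NPCs in all 5 lines. Notch4, the only receptor outside the 10 genes, is included here so that the shares sum over all receptors. Notch3 made up 13.8 ± 0.37% of the summed receptor RPKM (CPM per kilobase of exon) in E14 WT ESCs and 55.3 ± 5.6% in E14 WT NPCs (SD, n = 3), while Notch1 went from 22.4 ± 0.83% to 7.88 ± 0.83% and Notch4 from 27.6 ± 1.8% to 1.49 ± 0.19%. In the rescue table, Notch3 went from 23.9 ± 3.9% in ESC-WT to 38.4 ± 4.5% in NPC-WT and from 23.0 ± 1.6% in ESC-ΔZF1 to 44.4 ± 0.59% in NPC-ΔZF1 (SD, n = 2). Every NPC library held a larger Notch3 share and a smaller Notch1 share than every ESC library of its table. Notch2 held 33.0% to 39.6% of the pool in the ESC groups and 26.8% to 51.7% in the NPC groups, and in the NPC groups it came first in the rescue table and second after Notch3 in the truncation table. The shares depend on the length used, which the SDs do not cover. With coding length in E14 WT, Notch3 went from 10.8% in ESCs to 48.6% in NPCs and Notch1 from 28.3% to 11.1%. In ESC-WT, Notch1 stood above Notch3 by coding length (21.9% and 19.3%) and below it by exon length (16.8% and 23.9%).

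**Figure D1:**
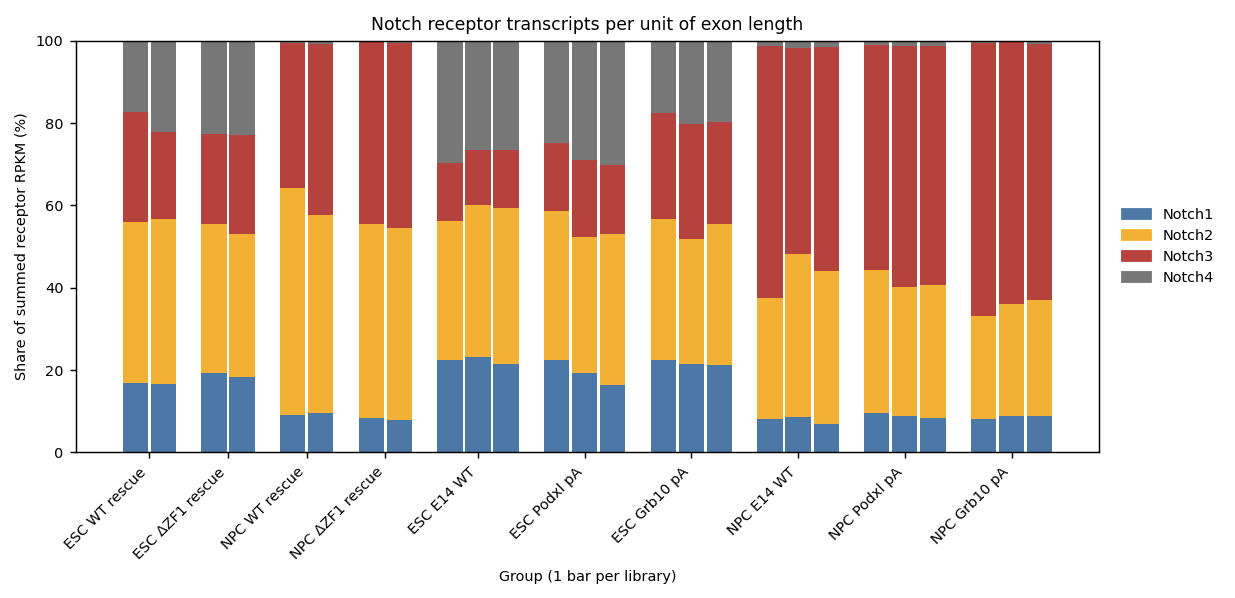
Each bar is 1 library, and its colours give the percent of the summed RPKM over exon length held by Notch1, Notch2, Notch3 and Notch4, with libraries grouped by cell type and line on the horizontal axis. Notch4 holds 17.4% to 30.1% of the bar in the ESC libraries and 0.406% to 1.69% in the NPC libraries, and Notch3 grows from 13.4% to 28.0% in ESCs to 35.3% to 66.3% in NPCs.

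Notch3 rose in the NPCs of all 5 lines. In the E14 WT libraries it stood at 28.3, 26.2 and 26.4 CPM in ESCs and at 165, 132 and 127 CPM in NPCs. No NPC library came near an ESC library, and the difference was 5.21-fold (log2 2.38, SE 0.14, edgeR quasi-likelihood test, adjusted p = 4.85e-14). The rise was 5.07-fold in Podxl pA (31.2 ± 0.63 to 157 ± 17 CPM, SD, n = 3) and 3.84-fold in Grb10 pA (57.9 ± 14 to 219 ± 18 CPM, SD, n = 3), with edgeR adjusted p of 4.42e-14 and 2.37e-13. In the rescue lines it was 3.27-fold for WT (adjusted p = 0.000246) and 3.09-fold for ΔZF1 (adjusted p = 0.000284), again by edgeR. The WT value rested on NPC-WT libraries at 84.3 and 151 CPM, both above the ESC-WT libraries at 39.7 and 32.6 CPM, and for Notch3 the log2 difference was 2.11 without NPC-WT replicate 1 and 1.27 without replicate 2, called in both fits. Exons of Notch3 share 6.033% of their bases with the antisense gene Gm17276, and counting ignored strand.

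Notch2 was higher in NPCs of both rescue lines and of Podxl pA. ESC-WT libraries stood at 77.6 and 82.8 CPM and NPC-WT libraries at 176 and 233 CPM, a 2.54-fold rise (log2 1.35, SE 0.14, edgeR adjusted p = 3.47e-05). Notch2 was called with either NPC-WT library left out (log2 1.54 and 1.13). In ΔZF1 the rise was 2.11-fold (86.3 and 80.7 to 177 and 176 CPM, adjusted p = 0.000129). In the untreated lines the log2 difference was 0.51 in Podxl pA (SE 0.11, adjusted p = 0.000519, called), 0.36 in E14 WT (SE 0.11, adjusted p = 0.00921) and 0.34 in Grb10 pA (SE 0.11, adjusted p = 0.0115), the last pair under the fold cutoff although every NPC library lay above every ESC library. Whether the rescue lines and the untreated lines differ in this was not tested, since they sit in separate tables.

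Notch1 had its clearest fall in E14 WT, from 79.8, 80.1 and 71.4 CPM in ESCs to 38.2, 39.9 and 28.6 CPM in NPCs. The groups did not overlap, and the fall was 2.14-fold (log2 -1.10, SE 0.14, edgeR adjusted p = 2.05e-07). It also fell in Podxl pA (log2 -0.53, SE 0.13, adjusted p = 0.00188), Grb10 pA (log2 -0.70, SE 0.13, adjusted p = 4.94e-05) and ΔZF1 (log2 -0.54, SE 0.19, adjusted p = 0.0412). The ΔZF1 call was lost in each of the 4 fits that left out 1 library (adjusted p 0.0801 to 0.172), and the Podxl pA call was lost without ESC replicate 1 (log2 -0.37) or NPC replicate 2 (log2 -0.45). In WT rescue cells the log2 difference was 0.14 (SE 0.20, adjusted p = 0.585), with NPC-WT libraries at 37.8 and 61.8 CPM on either side of the ESC-WT libraries at 44.5 and 45.3 CPM. It was 0.47 without NPC-WT replicate 1 and -0.24 without replicate 2, neither called. About 9.76% of Notch1 exon bases overlap exons of antisense transcripts.

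Among the ligands, Dll1, the Delta ligand of nascent neurons, rose from a low level in all 5 lines. ESC-WT libraries held 2 and 11 reads (0.306 and 0.717 CPM) and NPC-WT libraries 115 and 89 reads (4.87 and 7.65 CPM). The fitted rise was 10.3-fold (log2 3.36, SE 0.40, edgeR adjusted p = 9.52e-05), and its log2 value was 3.68 without NPC-WT replicate 1 and 3.04 without replicate 2. Without the ESC-WT library of 11 reads (replicate 2) the log2 value of Dll1 was 4.29, and without that of 2 reads (replicate 1) it was 3.07, called in all 4 fits. In E14 WT the ESC libraries held 6, 6 and 4 reads (1.31, 1.03 and 1.55 CPM) and the NPC libraries stood at 13.3, 9.47 and 10.4 CPM, an 8.60-fold rise (log2 3.10, SE 0.33, adjusted p = 1.65e-08). The rise was 9.60-fold in ΔZF1 (adjusted p = 2.13e-05), 6.18-fold in Podxl pA (adjusted p = 1.73e-07) and 3.85-fold in Grb10 pA (adjusted p = 4.32e-07), all by edgeR. In each line every NPC library exceeded every ESC library. Of the Dll1 exon bases, 20.55% overlap the antisense lincRNA A930024N18Rik, and reads of the 2 cannot be told apart without strand.

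Jag2, a Jagged ligand, also rose in all 5 lines. It stood at 11.6, 9.25 and 13.6 CPM in E14 WT ESCs and at 30.1, 30.3 and 26.0 CPM in E14 WT NPCs, without overlap, a 2.61-fold difference (log2 1.38, SE 0.17, edgeR adjusted p = 2.6e-07). The rise was 2.58-fold in Podxl pA (adjusted p = 2.09e-07), 3.29-fold in Grb10 pA (adjusted p = 7.03e-09), 2.26-fold in ΔZF1 (adjusted p = 0.0025) and 1.92-fold in WT rescue cells (adjusted p = 0.00768). The WT rescue value of Jag2 (log2 0.94) was 1.32 without NPC-WT replicate 1 and 0.50 without NPC-WT replicate 2, called in both fits, and it lost its call without ESC-WT replicate 2 (log2 0.93, adjusted p = 0.0616).

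Jag1, the other Jagged ligand, went in different directions in different lines. ESC-WT libraries stood at 16.5 and 17.0 CPM and NPC-WT libraries at 3.6 and 5.24 CPM, a 3.90-fold fall (log2 -1.96, SE 0.20, edgeR adjusted p = 3.77e-05), with a log2 value of -1.67 without NPC-WT replicate 1 and -2.21 without replicate 2. In ΔZF1 cells it fell 1.80-fold, from 12.6 and 11.2 to 6.8 and 6.4 CPM (log2 -0.85, SE 0.19, adjusted p = 0.0043). In Podxl pA it rose 1.73-fold, from 6.25, 7.50 and 8.24 CPM in ESCs to 10.8, 14.3 and 12.0 CPM in NPCs (log2 0.79, SE 0.23, adjusted p = 0.00734). No library of one cell type overlapped the other in these 3 lines. In E14 WT the log2 difference was 0.44 (SE 0.25, adjusted p = 0.163) and in Grb10 pA -0.01 (SE 0.24, adjusted p = 0.972), both with overlapping libraries. The ESC levels set side by side were 16.7 and 11.9 CPM on average in the rescue lines and 6.88 to 7.94 CPM in the untreated lines.

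Dll3, a ligand that acts inside the cell, stayed low, at 1 to 59 reads in each library. Its one call was in E14 WT, where ESC libraries held 1, 7 and 1 reads and NPC libraries 3, 19 and 7, with overlapping CPM (log2 1.68, SE 0.66, edgeR adjusted p = 0.0374). That call was lost with DESeq2 (adjusted p = 0.169) and without any of 4 single libraries, ESC replicate 1 or 3 and NPC replicate 2 or 3, where the adjusted p ran from 0.0641 to 0.251. The log2 difference of Dll3 ran from 1.25 to 2.89 with 1 library left out, the highest without ESC replicate 2. In the other 4 lines the log2 difference ran from -0.03 to 0.64 and was not called.

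Of the target genes, Hes1, which is broadly expressed, fell in the NPCs of all 5 lines, while Notch3, Dll1 and Jag2 rose in the same libraries. ESC-WT libraries stood at 49.98 and 46.8 CPM and NPC-WT libraries at 12.2 and 12.0 CPM, a 3.97-fold fall (log2 -1.99, SE 0.13, edgeR adjusted p = 1.99e-06). The fall was 2.49-fold in ΔZF1 (61.2 and 56.7 to 25.0 and 22.3 CPM, adjusted p = 1.47e-05). It was 2.25-fold in E14 WT (57.6, 40.9 and 51.3 to 22.0, 23.1 and 20.2 CPM, adjusted p = 1.49e-06), 2.04-fold in Podxl pA (adjusted p = 8.58e-06) and 1.71-fold in Grb10 pA (adjusted p = 9.58e-05). In every line all NPC libraries lay below all ESC libraries. In bulk RNA, fewer cells expressing a gene and less RNA per cell cannot be told apart.

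Hes5, the target most tied to neural progenitors, was not detected above a trace in any group. It had 0 reads in 19 of 26 libraries, 1 read in 5 and 2 reads in 2, 9 reads in all. The limit that 3 counts set was 0.106 to 1.54 CPM, depending on the library. ESC and NPC libraries alike were at this level, including E14 WT NPCs with 1, 0 and 0 reads. About 31.77% of Hes5 exon bases are shared with the antisense gene Gm20421. Among the members whose promoters were read, Hes5 alone held RBPJ core matches, as printed above. The promoters of the other targets, Hes1 and Hey1, were not read.

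Hey1 was low, at 2 to 40 reads in each library. It was called in Grb10 pA alone, where it fell 2.69-fold from 4.11, 4.49 and 4.03 CPM in ESCs to 1.58, 0.997 and 1.88 CPM in NPCs (log2 -1.43, SE 0.42, edgeR adjusted p = 0.00592), without overlap. In the other 4 lines the log2 difference ran from -0.51 to -0.25 and was not called. The difference of the Grb10 pA and E14 WT changes was -1.18 (SE 0.65, adjusted p = 0.295).

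Markers of other cell types moved between ESCs and NPCs too. All 8 pluripotency markers were called lower in the NPCs of every line. Extraembryonic endoderm markers were higher for 6 of 6 tested in each untreated line, 6 of 8 in WT rescue cells and 8 of 8 in ΔZF1, with summed levels of 12.0 to 13.9 CPM in E14 WT ESCs and 259.9 to 302 CPM in E14 WT NPCs. Surface ectoderm markers were higher for 7 of 7 in WT rescue cells (847 to 926 against 3892 to 5246 CPM), 6 of 7 in ΔZF1 (847 to 852 against 1835 to 1925 CPM) and 2 or 3 of 6 in the untreated lines, where 1 or 2 were lower. The 6 neuron markers summed to 61.4 to 140.3 CPM in NPC libraries and 207 to 341 CPM in ESC libraries. Of 4 neuron markers tested, 1 was higher in each rescue line, 3 were lower in WT rescue cells and 2 in each other line. Of the mesoderm markers, 1 or 2 were higher and 1 to 3 lower in each line. E14 WT sums were 37.7 to 46.0 CPM in ESCs and 65.7 to 73.5 CPM in NPCs. Of the endothelium markers, 1 was higher in each rescue line and 1 or 2 were lower in every line. E14 WT sums were 121 to 148 CPM in ESCs and 28.6 to 37.2 CPM in NPCs. The part of these markers in the changes of the Notch genes was not tested.

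Counted over the 9 tested genes, 4 rose and 2 fell in WT rescue cells, against 22.0% and 19.9% of all genes tested called higher and lower (41.9% in either direction). In ΔZF1 cells 4 rose and 3 fell (20.4% and 16.9%, 37.3% in all). In E14 WT 4 rose and 2 fell (16.5% and 16.3%, 32.8% in all), in Podxl pA 5 rose and 2 fell (17.1% and 14.7%, 31.8% in all), and in Grb10 pA 3 rose and 3 fell (17.2% and 17.4%, 34.6% in all). The median log2 difference over the 9 genes was 0.14, 0.64, 0.44, 0.51 and 0.34 in these 5 lines, beside -0.02 to 0.02 over all genes.

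**Figure D2:**
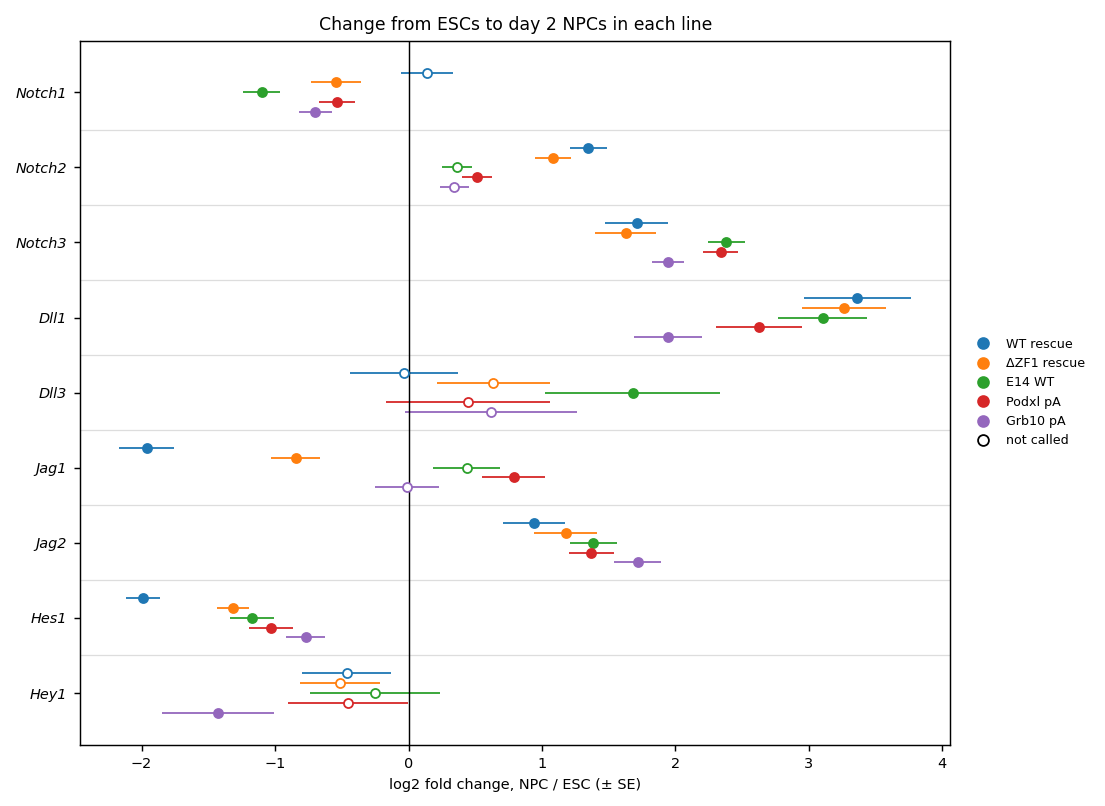
Points give the log2 fold change of NPCs over ESCs in each of 5 lines for the 9 tested genes, bars the standard error, and filled points the called changes. Notch3, Dll1 and Jag2 lie to the right of 0 and Hes1 to the left in all 5 lines, while Jag1 runs from -1.96 in WT rescue cells to 0.79 in Podxl pA.

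**Figure D3:**
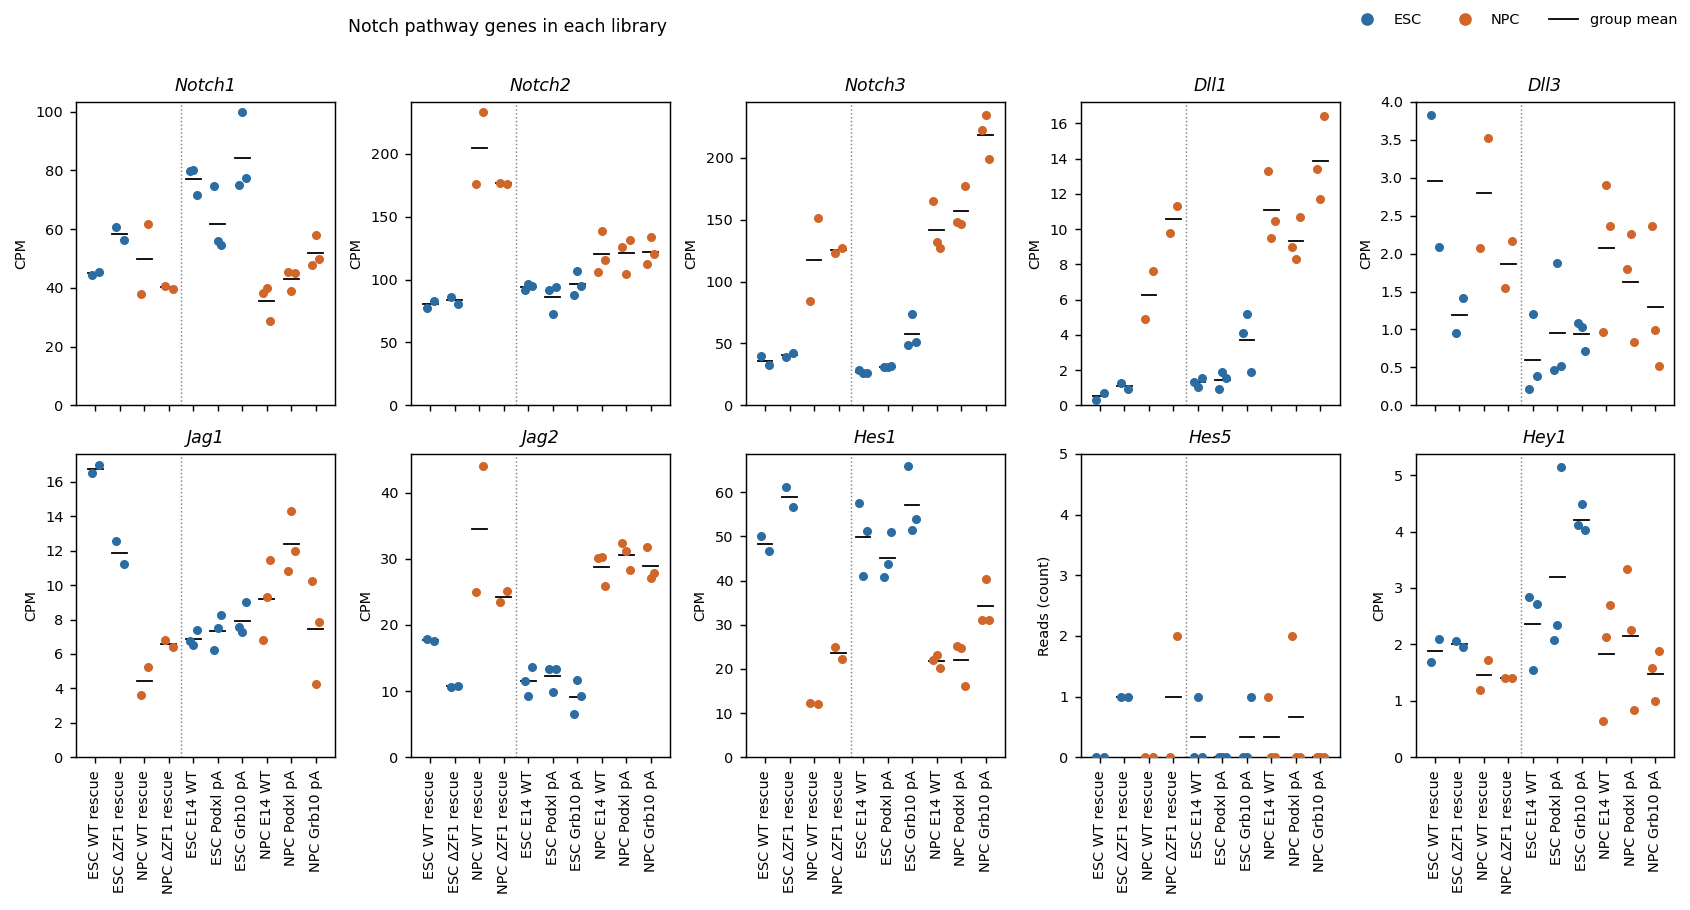
Each panel shows 1 gene and each point 1 library, in CPM on a linear axis that starts at 0, or in reads for Hes5, with a black line at the group mean and a dotted line between the rescue table (left) and the truncation table (right). Hes1 separates ESCs from NPCs in every line, and Hes5 never exceeds 2 reads.

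The order of the levels per exon length changed with the cell state. Hes1 came first in all 5 ESC groups, at 22.2 to 29.0 RPKM, followed by Notch2 at 7.44 to 8.94 RPKM. In NPCs, Notch3 came first in E14 WT (17.5 RPKM), Podxl pA (19.4 RPKM) and Grb10 pA (27.0 RPKM), and Notch2 came first in NPC-WT (19.0 RPKM) and NPC-ΔZF1 (16.4 RPKM). Notch2 and Notch3 overlapped in NPC-WT, and Notch2 and Hes1 overlapped in E14 WT and Podxl pA NPCs. With coding length in place of exon length Hes1 came first in 4 of the 5 NPC groups, at 25.7 to 40.4 RPKM, and not in NPC-WT, so the order of Hes1 against the receptors in NPCs depends on the length used. By group means in ESCs, Dll1, Dll3 and Hes5 stood below both Jagged ligands and all receptors by either length. In Grb10 pA ESCs Dll1 and Jag2 overlapped, at 12.6% to 27.2% and 26.0% to 37.3% of the summed RPKM of the ligands. Hey1 stood below the Jagged ligands by exon length, with overlap in Grb10 pA and Podxl pA, and above Jag1 by coding length in the 3 untreated lines.

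Rescue with CTCF-ΔZF1 was compared with rescue by CTCF-WT to ask what loss of the first zinc finger does in each cell state. In NPCs, 2 of the 9 tested genes were called, both higher in ΔZF1, beside 7.19% of all genes called higher, 10.5% called lower and 17.6% in either direction. Hes1 stood at 25.0 and 22.3 CPM in NPC-ΔZF1 and at 12.2 and 12.0 CPM in NPC-WT. It was 1.95-fold higher (log2 0.96, SE 0.13, edgeR adjusted p = 0.00104), and it kept its call under all 12 alternatives, with a log2 difference of 0.87 to 1.04. Dll1 stood at 9.76 and 11.3 CPM in NPC-ΔZF1 and at 4.87 and 7.65 CPM in NPC-WT, a 1.73-fold difference without overlap (log2 0.79, SE 0.24, adjusted p = 0.0455). The Dll1 call was lost with DESeq2 (log2 0.76, adjusted p = 0.101) and without any of 3 libraries. Its log2 difference was 0.46 without NPC-WT replicate 1, 0.88 without NPC-ΔZF1 replicate 1 and 0.67 without NPC-ΔZF1 replicate 2, with adjusted p of 0.068, 0.152 and 0.271.

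Jag1 was higher in NPC-ΔZF1 in both libraries (6.8 and 6.4 against 3.6 and 5.24 CPM) but missed the threshold (log2 0.62, SE 0.20, edgeR adjusted p = 0.0534). The receptors did not pass. Notch1 differed by -0.30 on the log2 scale (SE 0.19, adjusted p = 0.284), Notch2 by -0.21 (SE 0.13, adjusted p = 0.276) and Notch3 by 0.10 (SE 0.22, adjusted p = 0.783). These values rested on which of the 2 unlike NPC-WT libraries was used. Without NPC-WT replicate 1, 4 genes were called, Hes1 higher and Notch1 (log2 -0.63), Dll3 (log2 -0.92) and Jag2 (log2 -0.86) lower. Without NPC-WT replicate 2, 4 genes were called higher, namely Notch3 (log2 0.56), Dll1 (log2 1.10), Jag1 (log2 0.86) and Hes1.

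Markers of other cell types moved in the same comparison. All 8 markers of extraembryonic endoderm were called higher in NPC-ΔZF1, with summed levels of 775 to 824 CPM against 102 to 118 CPM in NPC-WT. Among its defining genes, Gata6 stood at 75.6 to 82.3 CPM against 8.01 to 10.4 CPM. Of the surface ectoderm list, 4 of 7 were lower and 1 higher, with summed levels of 1835 to 1925 CPM in NPC-ΔZF1 and 3892 to 5246 CPM in NPC-WT. Of the neural progenitor list, 3 of 7 tested were higher (among them Sox1, log2 1.05) and 1 lower (Nes, log2 -0.85). Of the mesoderm list, 2 of 6 tested were higher and 1 lower, with summed levels of 114 to 117 CPM against 26.7 to 30.2 CPM. Of the neuron list, 1 of 4 tested was higher and 1 lower, with summed levels of 136 to 140 CPM against 110 to 128 CPM. The part of these markers in the Hes1 and Dll1 differences was not tested.

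In ESCs none of the 9 genes was called by edgeR or by DESeq2, beside 3.61% of all genes. An unadjusted p under 0.05 was found for 4 of the 9, beside 3019 of all 16641 genes. Those 4 were Dll3 (log2 -1.20, SE 0.45, edgeR adjusted p = 0.187), Jag1 (log2 -0.50, SE 0.19, adjusted p = 0.185), Jag2 (log2 -0.72, SE 0.25, adjusted p = 0.144) and Hes1 (log2 0.29, SE 0.12, adjusted p = 0.235). For each of the 4, the ESC-ΔZF1 libraries lay wholly on one side of the ESC-WT libraries. As the 4 were picked by that p, this adds no support. The share of all genes so placed was not counted. The effect of ΔZF1 in NPCs minus that in ESCs was not called for any of the 9 genes by edgeR or DESeq2, beside 2.70% of all genes. For 3 of the 9 it had an unadjusted p under 0.05, beside 3042 of all 16641 genes. It was 1.12 for Jag1 (SE 0.27, adjusted p = 0.0665), 0.67 for Hes1 (SE 0.17, adjusted p = 0.0796) and -0.68 for Notch1 (SE 0.27, adjusted p = 0.223). Jag1 and Hes1 passed with either NPC-WT library left out. Without replicate 1 the values were 0.83 for Jag1 and 0.68 for Hes1, and Notch1 also passed, with a negative sign, and without replicate 2 they were 1.34 for Jag1, 0.62 for Hes1 and 0.65 for Jag2, which then also passed. In these fits NPC-WT is 1 library, assumed to vary like the other groups, and the spread between the 2 unlike NPC-WT libraries no longer enters the test.

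Truncation of Podxl or Grb10 RNA was compared with E14 WT in each cell state. Both sets of comparisons share the E14 WT libraries. In Podxl pA none of the 9 genes was called by edgeR or DESeq2 in ESCs (beside 0.339% of all genes) or in NPCs (beside 0.550%). In ESCs Notch1 alone (log2 -0.32) had an unadjusted p under 0.05, beside 1220 of all 13268 genes. In NPCs none of the 9 had one, beside 1350 of all genes. The largest member differences by size in NPCs were -0.50 for Dll3 (SE 0.53, edgeR adjusted p = 0.81) and 0.44 for Jag1 (SE 0.22, adjusted p = 0.529). Hes1 differed by -0.16 in ESCs (SE 0.15, adjusted p = 0.821) and by -0.02 in NPCs (SE 0.18, adjusted p = 0.988).

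In Grb10 pA ESCs, 2 of the 9 genes were called, both higher, beside 4.51% of all genes higher, 4.58% lower and 9.09% in all. Notch3 stood at 48.9, 73.9 and 50.9 CPM against 28.3, 26.2 and 26.4 CPM in E14 WT ESCs. It was 2.10-fold higher without overlap (log2 1.07, SE 0.15, edgeR adjusted p = 8.13e-06). The highest value, 73.9 CPM, is that of replicate 2, the library that stood apart, and without it the log2 difference of Notch3 was 0.88 (adjusted p = 2.91e-05). Dll1 held 19, 15 and 8 reads against 6, 6 and 4 reads, or 4.11, 5.18 and 1.90 CPM against 1.31, 1.03 and 1.55 CPM (2.87-fold, log2 1.52, SE 0.41, adjusted p = 0.0126). That call was lost without E14 WT replicate 2 (adjusted p = 0.0819), Grb10 pA replicate 1 (adjusted p = 0.0513) or Grb10 pA replicate 2 (adjusted p = 0.0584), with a log2 difference of 1.35, 1.39 and 1.28. In the same comparison 1 of 4 neuron markers tested was lower (summed levels of 207 to 235 against 324 to 341 CPM), 1 of 6 neural progenitor markers was lower (21.9 to 30.0 against 36.9 to 41.95 CPM), and of 6 surface ectoderm markers 2 were lower and 1 higher (759 to 764 against 1029 to 1115 CPM). Of 3 mesoderm markers tested 1 was higher (summed levels of 29.3 to 40.0 against 37.7 to 46.0 CPM). Of 8 pluripotency markers 1 was lower (4461 to 4542 against 3927 to 4002 CPM). The part of these markers in the Notch3 and Dll1 differences was not tested.

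In Grb10 pA NPCs, 3 of the 9 genes were called, all higher, beside 7.90% of all genes higher, 8.64% lower and 16.5% in all. Notch3 stood at 223, 235 and 199 CPM against 165, 132 and 127 CPM in E14 WT NPCs, 1.55-fold higher without overlap (log2 0.63, SE 0.11, edgeR adjusted p = 0.000101). Hes1 stood at 31.1, 40.4 and 31.1 CPM against 22.0, 23.1 and 20.2 CPM, 1.53-fold higher (log2 0.62, SE 0.17, adjusted p = 0.00657). Notch1 stood at 47.6, 58.1 and 49.9 CPM against 38.2, 39.9 and 28.6 CPM, 1.42-fold higher (log2 0.51, SE 0.14, adjusted p = 0.00715). Notch1 fell under the fold cutoff without E14 WT replicate 3 (log2 0.39) or Grb10 pA replicate 2 (log2 0.43), and with the genes of chromosome 8 left out of the scaling (log2 0.48). Ligands did not pass in these NPCs, Dll1 being at 0.36 (SE 0.21, adjusted p = 0.201) and Jag2 at 0.01 (SE 0.15, adjusted p = 0.966). Of the neural progenitor markers, 4 of 6 tested were lower and 1 higher in Grb10 pA NPCs, with summed levels of 108 to 111 CPM against 162 to 173 CPM, and of the pluripotency markers 3 of 8 were higher and 1 lower, with 817 to 879 CPM against 658 to 769 CPM. Of the neuron markers 2 of 4 tested were lower (61.4 to 62.2 against 129 to 139 CPM), and of the extraembryonic endoderm markers 2 of 6 were lower (208 to 279.9 against 259.9 to 302 CPM). Of 3 mesoderm markers tested 1 was higher and 1 lower (87.7 to 98.5 against 65.7 to 73.5 CPM). Of 6 surface ectoderm markers tested 1 was higher and 1 lower (812 to 831 against 1031 to 1075 CPM). The part of these markers in the Notch3, Hes1 and Notch1 differences was not tested.

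The difference of each truncation effect between NPCs and ESCs was not called for any of the 9 genes by edgeR or DESeq2. For Podxl pA, 0.0980% of all genes were called and 1 of the 9, Notch1, had an unadjusted p under 0.05 (log2 0.57, SE 0.19, edgeR adjusted p = 0.301). Of all 13268 genes, 1355 had one. For Grb10 pA, 5.90% were called and 3 of the 9 had one, Notch1 (log2 0.40, SE 0.19, adjusted p = 0.204), Notch3 (log2 -0.44, SE 0.18, adjusted p = 0.149) and Dll1 (log2 -1.16, SE 0.47, adjusted p = 0.136). Of all genes, 2921 had one. Dll1 passed without ESC Grb10 pA replicate 3 (log2 -1.49, adjusted p = 0.0468).

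**Figure D4:**
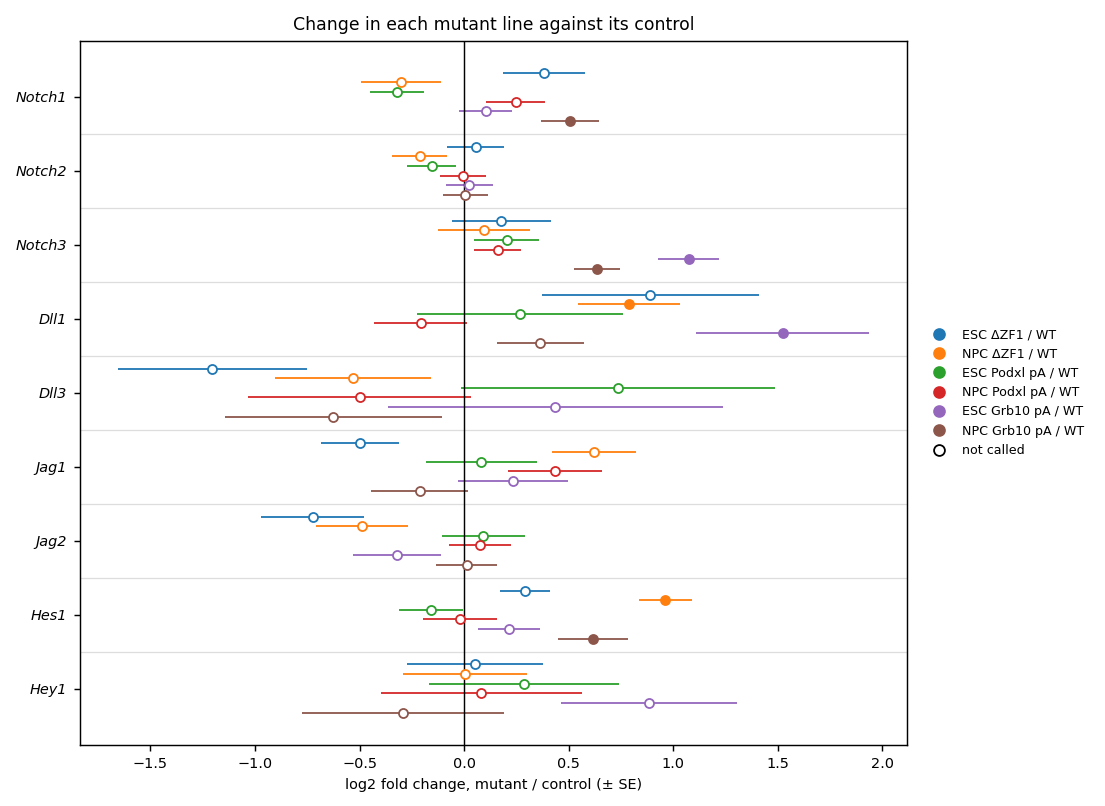
Points give the log2 fold change of each mutant line over its control in ESCs and NPCs for the 9 tested genes, bars the standard error, and filled points the called changes. The 7 filled points, for Notch1, Notch3, Dll1 and Hes1, all lie to the right of 0 and come from NPC-ΔZF1 and from Grb10 pA.

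Other pathway genes were taken from a list of 57 in 9 roles, of which 47 were tested in the rescue table and 41 in the truncation table. Between ESCs and NPCs, 18 rose and 5 fell in WT rescue cells, 14 rose and 6 fell in ΔZF1, 7 rose and 6 fell in E14 WT, 8 rose and 6 fell in Podxl pA, and 9 rose and 8 fell in Grb10 pA. Over all genes tested, 41.9%, 37.3%, 32.8%, 31.8% and 34.6% were called in these 5 lines. Notch4, the fourth receptor, fell in all 5 lines, from 53.9 ± 5.4 to 3.79 ± 0.57 CPM in E14 WT (SD, n = 3), with log2 changes of -4.75 to -3.77 over the 5 lines. Lfng, a fringe glycosyltransferase that tunes which ligands a receptor answers to, rose in all 5 lines, in WT rescue cells from 1.57 and 2.75 to 9.28 and 11.3 CPM in order of level (log2 2.37, SE 0.26, edgeR adjusted p = 6.16e-05). Hes6, a HES family member known to oppose Hes1, rose in all 5 lines too, in E14 WT from 12.2 ± 1.3 to 27.3 ± 1.6 CPM (log2 1.17, SE 0.16, adjusted p = 7.46e-07).

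Of the 3 noncanonical or further ligands on the list, Dlk1 rose in all 5 lines, with log2 changes of 0.66 to 1.95. Of 4 genes for ligand endocytosis, Mib2 and Neurl1a, ubiquitin ligases, fell in ΔZF1 cells and in the 3 untreated lines. In E14 WT the falls were 0.85 and 1.43 on the log2 scale. In WT rescue cells Neurl1b rose (log2 0.96, edgeR adjusted p = 0.00442) and 0 of the 4 fell. In Podxl pA 1 of the 4 rose. The nuclear complex split. Tle4, a corepressor, rose in E14 WT (log2 1.33) but fell in WT rescue cells (log2 -0.80), and Maml3, a coactivator, rose in all 5 lines, with log2 changes of 1.87 to 4.04. Among negative regulators, the ubiquitin ligase gene Dtx4 rose in all 5 lines, in E14 WT from 9.20 ± 1.3 to 43.7 ± 6.7 CPM (SD, n = 3). Of the 7 proneural factors, which Hes proteins repress, 2 were tested in the rescue table and none in the truncation table. Of those 2, 1 was called higher in the NPCs of each rescue line, beside 22.0% (WT) and 20.4% (ΔZF1) of all genes. Against NPC-WT, 1 of the 2 was called higher in NPC-ΔZF1, beside 7.19% of all genes. Of the 7 other HES and HEY genes, 2 were tested in the rescue table and 1 in the truncation table.

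Against its control, NPC-ΔZF1 had 5 list genes higher and 8 lower of 47, beside 7.19% and 10.5% of all genes. DESeq2 called 10 of the 44 list genes to which it gave an adjusted p. The γ-secretase gene Psen2 (log2 -0.69), the fringe gene Rfng (log2 -0.85), Mib2 (log2 -0.91) and Neurl1b (log2 -0.92) were lower. The protease gene Adam10 (log2 0.67) and Lfng (log2 0.62) were higher. These calls rested on the 2 unlike NPC-WT libraries. In order of level, those stood at 19.1 and 35.6 CPM for Mib2, 23.9 and 33.4 for Rfng and 15.3 and 21.2 for Psen2. For Neurl1b they stood at 10.1 and 12.6 CPM, for Adam10 at 40.5 and 61.4 CPM and for Lfng at 9.28 and 11.3 CPM. Lfng was near the cutoff (edgeR adjusted p = 0.0466). ESC-ΔZF1 had 0 of 47 called by edgeR and 0 by DESeq2, with 5 at an unadjusted p under 0.05, beside 3019 of all 16641 genes. The effect of ΔZF1 in NPCs minus that in ESCs had 0 of 47 called by edgeR and 3 by DESeq2. Under 0.05 unadjusted were 11 of the 47, beside 3042 of all 16641 genes. Podxl pA had 0 of 41 called by either tool in ESCs (4 under 0.05 unadjusted), in NPCs (2) and between the cell types (3), and Grb10 pA had 0 of 41 by either tool in ESCs (8). Of all 13268 genes, those under 0.05 unadjusted were 1220, 1350 and 1355 for Podxl pA in this order, and 3824 for Grb10 pA in ESCs. In Grb10 pA NPCs 2 list genes were higher and 5 lower of 41, beside 7.90% and 8.64% of all genes. Rbpj, the DNA-binding partner of the receptors, stood at 266 ± 21 CPM against 143 ± 6.5 CPM in E14 WT NPCs (SD, n = 3, log2 0.89, SE 0.089). Its effect was larger in NPCs than in ESCs by 0.74 (SE 0.13), and Tle4 was lower there (log2 -0.63).

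The genes whose log2 CPM was most like a member over the 8 rescue and the 18 truncation libraries, taken by the lower of the 2 Pearson correlations among 7412 or 7413 genes, are given as a description, and the libraries within each table share the split into ESCs and NPCs. For Hes1 they were Cox8a (0.96), Slc29a1 (0.95) and Ndufv2 (0.95), for Notch1 Ap2a1 (0.91), Kdm5c (0.91) and Acvr1b (0.88), and for Dll1 Sema4c (0.97) and Fzd7 (0.96). For Jag1 they were Gtpbp10 (0.74), Mphosph10 (0.71) and Ncl (0.70). Among the members, Dll1 and Notch3 had a correlation of 0.94 in the rescue table and 0.97 in the truncation table. Jag1 and Hes1 had a correlation of 0.92 in the rescue table and -0.56 in the truncation table.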

How the data were processed

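Total RNA of 26 mouse libraries was depleted of ribosomal RNA and sequenced. The authors deposited raw counts of reads per gene, made with STAR on mm10 and featureCounts, not specific to strand as the deposited tables are named. Versions and annotation are not given in the sources used here. A total of 3 columns matched no labelled sample and were not used. Counts were tested per table with edgeR 4.0.16 in R 4.3.3 (TMM, filterByExpr, a mean per group, quasi-likelihood test), with contrasts between groups, over 16641 genes in the rescue table and 13268 in the truncation table. SE is the absolute log2 fold change over the root of F. DESeq2 1.42.0 was an alternative, as were RLE scaling, other filters, fewer libraries, chromosomes left out of scaling, a replicate block and leaving out libraries. Levels are CPM, or RPKM over GENCODE M21 exon length (GRCm38). Scripts were tested on simulated data. Depth limits precision for Dll1, Dll3, Hey1 and Hes5.

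The 10 genes, the list of 57 and the markers were chosen with earlier results of these data known. Named were all 10 members, Podxl and Grb10, the 3 genes most like each of Hes1, Notch1, Dll1 and Jag1 (Hes5 was not tested), and, per role and comparison, up to 2 called list genes of largest change that averaged 100 or more normalized counts. List genes given in further comparisons, the marker genes and the promoter sequences were chosen after their values were seen. A few results that this rule names are not reported here. Replicate pairs differed by a chi-square of 1.76 to 74.1 per gene, so none was treated as a duplicate. Limits from counts cover counting error only.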

Additional observations from a re-analysis of the deposited data

Results flagged for a closer look

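Between lines of different tables the change from ESCs to NPCs went opposite ways, with no overlap of libraries in either line, for the 6 genes given here, and the difference was not tested. The 6 were picked for this pattern, and its share over all genes was not counted. Both changes were called for Jag1 and Tle4. For the other 4 the smaller change was not called. Jag1 had log2 changes of -1.96 in WT rescue cells and 0.79 in Podxl pA. Dtx2 had -0.22 in Podxl pA and 0.98 in WT rescue cells and Furin -0.33 in E14 WT and 1.06 in WT rescue cells. Ncstn had -0.57 in Grb10 pA and 0.20 in ΔZF1 rescue cells, Rbpj -0.23 in ΔZF1 rescue cells and 1.11 in Grb10 pA, and Tle4 -0.80 in WT rescue cells and 1.33 in E14 WT.

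The effect of Grb10 pA differed between NPCs and ESCs by a test of the difference itself for 5 of 41 list genes, beside 5.90% of all genes, and for none of the 9 tested members. The difference was -0.57 for Pofut1 and 0.74 for Rbpj on the log2 scale (edgeR adjusted p = 0.0211 and 0.000747).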

How the results depend on the processing

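The number of the 9 tested genes called stayed within 1.5 times the value reported in all alternatives for the 5 changes from ESCs to NPCs, for Podxl pA in both cell types and between them, and for Grb10 pA in NPCs. With 1 library left out it ran from 5 to 6 for WT rescue cells, 6 to 6 for ΔZF1, 5 to 6 for E14 WT, 6 to 7 for Podxl pA, 6 to 6 for Grb10 pA and 2 to 3 for Grb10 pA in NPCs, and was 0 to 0 for ΔZF1 in ESCs and the 3 Podxl pA comparisons.

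For NPC-ΔZF1 against NPC-WT (2 called) the count was 1 with chromosome 11 genes left out of the scaling, with an adjusted p cutoff of 0.01, with the compared libraries alone and with DESeq2, and 1 to 4 with 1 library left out. For ESC-ΔZF1 against ESC-WT (0 called) it was 1 with no filter on low counts and 2 with the compared libraries alone. For the effect of ΔZF1 between cell types (0 called) it was 2 with no filter and 0 to 3 with 1 library left out. For Grb10 pA in ESCs (2 called) it was 1 with at least 10 counts asked in every library, with the 0.01 cutoff and with the compared libraries alone, and 1 to 2 with 1 library left out. For the effect of Grb10 pA between cell types (0 called) it was 0 to 1 with 1 library left out. At 10 counts in every library Dll1 was no longer tested, and otherwise the cause was not tested.

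Among 1769 single-gene values under the alternatives, no called value changed sign, 75 uncalled values did, 35 lost a call and 18 gained one. Same-numbered libraries had correlations of -0.217 to 0.122 in the rescue table and -0.377 to 0.271 in the truncation table. With 2 libraries per group, the rescue values of differently numbered pairs only mirror these. The correlations cannot exclude a shared day or culture, which the labels do not state, and the main fits used no pairing. The replicate block left each of the 14 counts as it was, for example 2 for NPC-ΔZF1. Depth limits Hes5, Dll3, Hey1 and, in ESCs, Dll1.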
